A study of Danio rerio with 4 samples.

Results

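The spliceosome snRNP and splicing factor genes were followed in RNA from whole zebrafish embryos at 48 hours post fertilisation (hpf). The set holds the 98 genes, of 32512 annotated, whose symbol in the deposited table begins with snrp, snrnp, lsm and a digit, sf3a, sf3b, prpf, srsf, u2af or hnrnp. Embryos of the Tubingen wild-type strain had been injected with a hace1 morpholino (hace1 MO) or a standard control morpholino (control MO), and each group had 2 libraries, A and B. Hace1 is a HECT-domain ubiquitin ligase. The hace1 morpholino blocks a splice site in the part of the message that encodes the HECT domain, and per the labels RT-PCR had verified the knock-down. Per the labels, each library pooled 3 RNA samples of about 100 embryos. A pool averages over many animals, nothing in the labels says that the pools came from separate clutches, and p-values therefore measure the spread between pools, which may be technical. Per the labels, 2 libraries shared a sequencing chip. If those were the libraries of 1 group, chip and morpholino cannot be told apart. The oligonucleotides are shown because they define the groups. Both have 25 bases, of which 10 in the hace1 morpholino and 8 in the control morpholino are G or C.
hace1 morpholino: ccctcgaactgttagacagaataaa
standard control morpholino: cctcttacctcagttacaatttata

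The spliceosome removes introns from pre-mRNA. Its core particles, the small nuclear ribonucleoproteins (snRNPs) U1, U2, U4, U5 and U6, each join a small RNA to a ring of Sm proteins, or of LSm proteins in the case of U6, and to proteins specific to that particle. U1 recognises the 5′ splice site, the U2 auxiliary factor U2AF and the U2 snRNP recognise the 3′ splice site and the branch point, and the U4/U6 and U5 particles join before catalysis. SR proteins (srsf genes) and hnRNP proteins bind exons and introns and shift the choice of splice sites. All cells use this machinery, and its messages are abundant in embryos. Some members act elsewhere: the LSm1 ring and LSm14 proteins belong to cytoplasmic mRNA turnover and storage, and LSm10 and LSm11 to the U7 particle of histone mRNA processing.

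Of the 98 members, 57 were measured and 41 were listed at 0 in all 4 libraries, against 59.3% of all annotated genes. None lay above 0 but under the count filter. The members at 0 included 5 of the 7 Sm genes (snrpb, snrpd2, snrpd3, snrpd3l and snrpe), all 3 minor spliceosome genes (snrnp25, snrnp35 and snrnp48), 10 of 14 LSm genes and u2af1. Since every cell needs Sm proteins and U2AF1, such a 0 can come from the counting and says nothing of the gene's expression. The classes were thus seen in part: 2 of 7 Sm genes, 2 of 3 U1 genes, 8 of 11 U2 genes, 9 of 18 genes of the U4/U6 and U5 particles and other PRPF proteins, 4 of 14 LSm genes, 15 of 16 SR genes, 2 of 3 U2AF genes and 15 of 23 hnRNP genes. In 7 cases a symbol stood on more than 1 identifier, such as prpf3, which has 2 measured entries on chromosome 16.

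Estimated gene counts summed to between 9856173 and 10413981 in the hace1 MO libraries and between 5192490 and 8596019 in the control MO libraries. Control A was the shallowest library. Over well-counted genes the control libraries also differed more from each other than the hace1 MO libraries did (median absolute log2 difference of 0.13 between the hace1 MO libraries and 0.24 between the control MO libraries). The total RNA of hace1 was 13.7 and 13.5 CPM in hace1 MO libraries, against 18.6 and 13.5 CPM in control MO libraries. CPM are counts per effective library size, the total of tested genes times a trimmed-mean factor (0.944 and 0.950 in hace1 MO libraries, 1.11 and 1.00 in control MO libraries). Over all genes CPM summed to 1060224 and 1053885 in hace1 MO libraries and to 898499 and 1000099 in control MO libraries, so sums of CPM do not share a common total. Since the morpholino acts on a splice site, this total does not check the knock-down.

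Per length, hnRNP genes led the set. Hnrnpaba, which encodes an RNA-binding protein of the hnRNP A/B type, had 1140 and 1203 CPM per kb of exonic length in hace1 MO libraries, against 1030 and 1446 in control MO libraries. Hnrnpa0b had 946 and 1108 CPM per kb in hace1 MO libraries and 823 and 960 in control MO libraries. Hnrnpa1a, a homologue of the classic splicing repressor hnRNP A1, had 826 and 805 CPM per kb in hace1 MO libraries and 1011 and 942 in control MO libraries. The ranges of these neighbours overlapped, so their order is not fixed by these libraries. By the mean over all 4 libraries, hnrnpa0a (568 CPM per kb), hnrnpa1b (397) and the Sm gene snrpd1 (357) came next, and the lowest was lsm11 with 1.13. Snrpd1 had 538 and 512 CPM per kb in hace1 MO libraries but 146 and 233 in control MO libraries. Its place in this order therefore rests on the hace1 MO libraries. Members together took 2.01% and 2.11% of the counts in hace1 MO libraries, against 2.12% and 2.19% in control MO libraries.

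Snrpd1 rose in hace1 morphants, and no other member passed the test. In bulk RNA, here and below, a change in the number of cells of a type and a change in RNA per cell cannot be told apart. Snrpd1 encodes SmD1, a subunit of the Sm ring shared by the U1, U2, U4 and U5 snRNPs. On unscaled counts it had 3662 and 3703 in hace1 MO libraries and 618 and 1465 in control MO libraries. In CPM this was 394 and 375 in hace1 MO libraries, against 107 and 170 in control MO libraries. Both hace1 MO libraries lay well above both control MO libraries, and the control libraries differed 1.59-fold between themselves. The means were 384 ± 13.6 CPM in hace1 MO and 139 ± 44.9 CPM in control MO (SD, n = 2 libraries each). The rise was 2.86-fold (log2 fold change 1.51 ± 0.22 SE, 95% interval 1.04 to 1.99, limma-voom adjusted p = 0.00736), and by p it ranked 25 among 10832 tested genes. Without hace1 A or without hace1 B the fold change was 1.48 and 1.55 on the log2 scale, but the call was lost. With 1 hace1 MO library left, these fits take their spread from the control MO libraries, which differed more from each other. Most calls over all tested genes were lost there too. Without control A the fold change of snrpd1 was 1.17 and without control B 1.84. With 1 control MO library left, these fits do not measure the spread between control MO libraries.

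The rise ran along the whole gene. Snrpd1 (ENSDARG00000011648) lies on Zv9 chromosome 19, from 1996199 to 2001151 on the plus strand, with 1 listed transcript of 4 exons and 732 exonic bases. Exon 1 had 26.1 and 28.5 CPM in hace1 MO libraries, against 11.5 and 12.2 CPM in control MO libraries. Exon 3, which held the most counts, had 201 and 180 CPM in hace1 MO libraries and 44.3 and 80.2 CPM in control MO libraries. All 4 exons were higher in both hace1 MO libraries than in either control library. Exon 3 held 51.1% and 48.0% of the exon counts in hace1 MO libraries and 41.4% and 47.1% in control MO libraries. The shares of this exon did not overlap between groups, but control B lay within 1 percentage point of hace1 B, and no exon of snrpd1 passed the test of relative use (limma diffSplice, adjusted p = 0.9997 for each).

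**Figure D1:**
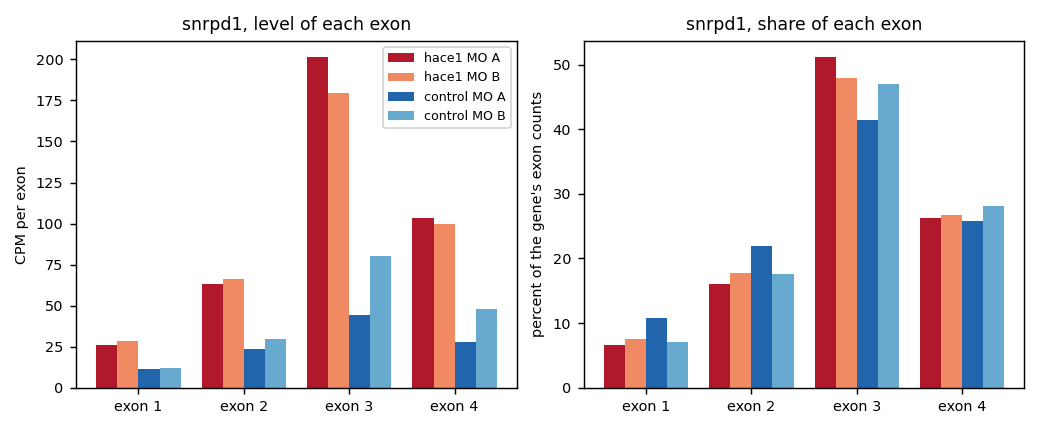
Level of each snrpd1 exon in CPM (left) and its share of the gene's exon counts in percent (right), with 1 bar per library. Every exon was higher in both hace1 MO libraries, and exon 3 held between 41.4% and 51.1% of the counts in all 4.

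No annotated gene overlaps snrpd1. Its measured neighbours within 100 kb did not pass the test, a check chosen after the value of snrpd1 was seen. The ribosomal protein gene rplp1 stood at 0.18 ± 0.25 SE on the log2 scale (adjusted p = 0.715, limma-voom), and ptk2.2, which encodes a focal adhesion kinase, at -0.54 ± 0.16 (adjusted p = 0.0883). The zinc and ring finger gene znrf2a had 0.59 ± 0.29 SE (adjusted p = 0.248). The flanking genes clptm1l and ggcta were listed at 0.

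Across the set, 1 of 57 tested members was called higher and 0 were called lower at an adjusted p below 0.05. Of all 10832 tested genes, 2.76% were called, 1.38% higher and 1.38% lower, and 1 call in 57 is near that background, so the count is not a result about the set. At an unadjusted limma-voom p below 0.05 there were 8 members (snrpd1, srsf6a, srsf7a, snrpa, snrpa1, sf3a2 and sf3b14 on the higher side and prpf4ba on the lower), against 22.4% of all tested genes, and limma-trend on log2 CPM also called 1. The median log2 fold change was 0.16 over tested members (0.07 without control A) and 0.0051 over all tested genes. It was above 0 for 36 of 57 members, against 50.5% of all tested genes. Groups did not overlap, with hace1 MO higher, in 22 members (26.7% of all tested genes), and with hace1 MO lower in 7 members (26.9%). The 56 members that were not called lay between -0.47 and 0.60 on the log2 scale. Their limma-voom adjusted p were 0.113 or above, with standard errors that ranged from 0.16 to 0.44 over all 57, so differences of this size were not resolved. The set median was 0.0028 with library totals left unscaled, which moves the median of all tested genes to -0.14.

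**Figure D2:**
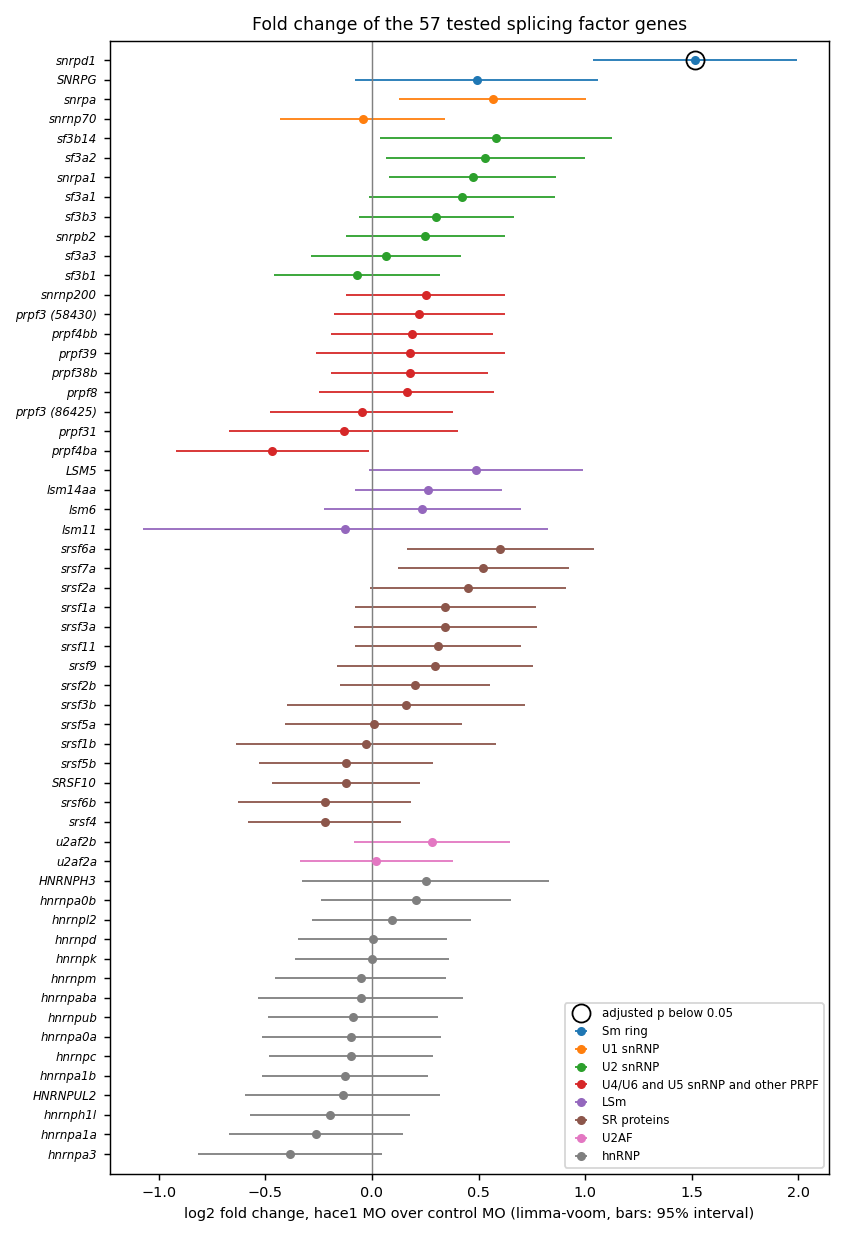
Log2 fold change (hace1 MO over control MO) of the 57 tested members, by class, with 95% intervals from limma-voom. Snrpd1, circled, at 1.51 is the called member, and the others lie between -0.47 and 0.60.

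The other measured Sm gene, SNRPG, was not called. It encodes SmG, a further subunit of the ring. SNRPG had 190 and 198 CPM in hace1 MO libraries, against 98.6 and 195 CPM in control MO libraries. Control B was level with the hace1 MO libraries and control A was the one that lay lower. The log2 fold change was 0.49 ± 0.26 SE (95% interval -0.08 to 1.06, limma-voom adjusted p = 0.286), and it was -0.0084 without control A and 0.97 without control B. Whether snrpd1 and SNRPG differ in response was not tested.

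Among U1 genes, 0 of 2 passed the test. Snrpa, which encodes the A protein that binds a stem-loop of U1 RNA, had 324 and 319 CPM in hace1 MO libraries and 181 and 263 CPM in control MO libraries. The groups did not overlap, but the controls differed 1.45-fold (log2 fold change 0.57 ± 0.20 SE, limma-voom adjusted p = 0.131). Snrnp70, which encodes U1-70K, the protein that contacts SR proteins, had 266 and 245 CPM in hace1 MO libraries and 239 and 291 CPM in control MO libraries. Its groups overlapped (-0.04 ± 0.18 SE, adjusted p = 0.911).

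Of the 8 measured U2 genes, 0 passed the test, and 7 had a positive log2 fold change (median 0.36). In 6 of the 8, both hace1 MO libraries lay above both control MO libraries, against 26.7% of all tested genes. Control A was the lowest library in 5 of the 8. Snrpa1, which encodes the A′ protein bound to U2 RNA, had 48.2 and 48.9 CPM in hace1 MO libraries, against 40.4 and 30.7 CPM in control MO libraries. Here control B, not control A, was the lowest library (log2 fold change 0.47 ± 0.18 SE, limma-voom adjusted p = 0.151, and 0.66 with an adjusted p of 0.00294 without control A). Sf3a2, a subunit of the SF3a complex that places U2 at the branch point, had 259 and 240 CPM in hace1 MO libraries and 138 and 217 CPM in control MO libraries. Sf3b14, listed today as SF3B6, encodes p14, a small SF3b subunit that lies near the branch point. It had 210 and 192 CPM in hace1 MO libraries, against 98.6 and 184 CPM in control MO libraries. In both genes the hace1 MO libraries lay just above control B and far above control A (log2 fold changes 0.53 ± 0.21 and 0.58 ± 0.25 SE, limma-voom adjusted p = 0.171 and 0.195). Sf3a1, another SF3a subunit, had 0.42 ± 0.20 SE, and sf3b3 had 0.30 ± 0.17 (adjusted p = 0.236 and 0.301). Sf3b3 spans other annotated genes (st3gal2 and lonp2 among them), and reads there may be hard to assign. Snrpb2 and sf3a3, the remaining 2 U2 genes, had log2 fold changes of 0.25 and 0.07. Sf3b1, the subunit of SF3b that closes around the branch-point helix, overlapped between groups at 350 and 372 CPM in hace1 MO libraries and 415 and 344 CPM in control MO libraries.

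The 9 measured genes of the U4/U6 and U5 particles and other PRPF proteins held 0 calls (median log2 fold change 0.18). Prpf8, the scaffold of the catalytic core, had 367 and 457 CPM in hace1 MO libraries, against 338 and 399 CPM in control MO libraries. Snrnp200, the helicase that unwinds U4 from U6, had 190 and 228 CPM in hace1 MO libraries and 171 and 179 CPM in control MO libraries. The prpf8 values interleaved, while those of snrnp200 did not overlap (log2 fold changes 0.16 ± 0.19 and 0.25 ± 0.17 SE, limma-voom adjusted p = 0.65 and 0.405). Prpf4ba, a kinase of the tri-snRNP, had the most negative value of the whole set, at 10.9 and 13.2 CPM in hace1 MO libraries and 17.1 and 16.2 CPM in control MO libraries (-0.47 ± 0.21 SE, adjusted p = 0.208). Its paralogue prpf4bb had 55.5 and 62.1 CPM in hace1 MO libraries and 45.6 and 57.8 CPM in control MO libraries (0.19 ± 0.17 SE). The difference between these paralogues was not tested. Prpf39, a U1-associated protein, had 337 and 366 CPM in hace1 MO libraries and 371 and 256 CPM in control MO libraries, and prpf31, which joins U4/U6 to U5, had 12.9 and 13.5 CPM in hace1 MO libraries and 19.1 and 11.6 CPM in control MO libraries. In both it was control A that was highest and control B that was lowest. The 2 prpf3 entries had log2 fold changes of 0.22 and -0.05 and prpf38b one of 0.18. Snrnp200 overlaps odf2b on the opposite strand, and with a strand setting not given in the sources used here their reads may be mixed.

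Of 4 tested LSm genes 0 were called, and control A was the lowest library in 2 of them. LSM5, a subunit of the LSm ring on U6, had 78.8 and 75.9 CPM in hace1 MO libraries, against 40.9 and 72.8 CPM in control MO libraries. Lsm6, its partner in that ring, had 149 and 136 CPM in hace1 MO libraries and 96.0 and 153 CPM in control MO libraries. In both of these, control A alone was low, and LSM5 in control B lay only just under the hace1 MO values. The log2 fold changes were 0.49 ± 0.23 and 0.24 ± 0.21 SE (limma-voom adjusted p = 0.235 and 0.548). Lsm14aa, a component of mRNA storage granules, had 117 and 126 CPM in hace1 MO libraries and 101 and 101 CPM in control MO libraries (0.27 ± 0.16 SE, adjusted p = 0.345). The controls were level there, both under the hace1 MO libraries. Lsm11 was near the filter, at no more than 1.51 CPM in any library (-0.12 ± 0.44 SE, adjusted p = 0.893).

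SR genes were measured nearly in full. Of 15 tested, 0 were called and 10 had a positive log2 fold change (median 0.20). Srsf6a had 296 and 394 CPM in hace1 MO libraries, against 198 and 257 CPM in control MO libraries. Srsf7a had 463 and 533 CPM in hace1 MO libraries and 318 and 378 CPM in control MO libraries. For both, neither group overlapped the other, and the spread within each group was similar (log2 fold changes 0.60 ± 0.20 and 0.52 ± 0.18 SE, limma-voom adjusted p = 0.113 and 0.128). Srsf2a, which encodes a homologue of the exon-binding factor SC35, had 681 and 798 CPM in hace1 MO libraries and 454 and 646 CPM in control MO libraries (0.45 ± 0.21 SE, adjusted p = 0.231). Srsf1a, a homologue of the factor ASF/SF2, had 756 and 845 CPM in hace1 MO libraries and 559 and 714 CPM in control MO libraries (0.34 ± 0.20 SE, adjusted p = 0.319). Srsf11 had 496 and 578 CPM in hace1 MO libraries and 435 and 429 CPM in control MO libraries (0.31 ± 0.18 SE, adjusted p = 0.326). Srsf2a, srsf1a and srsf11 were each higher in both hace1 MO libraries than in either control library. Srsf4 had the most negative value of the class, with 144 and 159 CPM in hace1 MO libraries and 185 and 168 CPM in control MO libraries (-0.22 ± 0.17 SE, adjusted p = 0.452).

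Paralogous SR genes had differing orders of libraries, a difference that was not tested. Srsf1b had 258 and 251 CPM in hace1 MO libraries, against 180 and 382 CPM in control MO libraries. The hace1 MO values fell between those of the controls, and at 2.12-fold its control libraries were farther apart than those of any other tested member. Srsf3b was similar, with 737 and 639 CPM in hace1 MO libraries and 459 and 836 CPM in control MO libraries, while srsf3a had 319 and 307 CPM in hace1 MO libraries and 208 and 295 CPM in control MO libraries. Srsf6b had 261 and 251 CPM in hace1 MO libraries and 342 and 259 CPM in control MO libraries, and its groups overlapped, unlike those of srsf6a. Log2 fold changes were -0.03 for srsf1b, 0.16 for srsf3b, 0.34 for srsf3a and -0.22 for srsf6b, none called. Srsf2b (0.20), srsf9 (0.30), srsf5a (0.0091), srsf5b (-0.12) and SRSF10 (-0.12) were not called. Srsf1b was lower without control A (-0.59, limma-voom adjusted p = 0.00363) and higher without control B (0.50, adjusted p = 0.0118), so its direction rests on which control is used. How reads that match both copies were counted was not analysed here.

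Both measured U2AF large-subunit genes and all 15 measured hnRNP genes missed the threshold. U2af2b had 245 and 275 CPM in hace1 MO libraries, against 214 and 213 CPM in control MO libraries (0.28 ± 0.17 SE on the log2 scale, limma-voom adjusted p = 0.339). U2af2a overlapped, at 94.4 and 110 CPM in hace1 MO libraries and 105 and 95.9 CPM in control MO libraries. The hnRNP class had the lowest median of the classes, at -0.09, with 10 of 15 members below 0. Hnrnpa3 had 15.3 and 13.0 CPM in hace1 MO libraries and 18.3 and 18.5 CPM in control MO libraries (-0.39 ± 0.20 SE, adjusted p = 0.271). HNRNPH3, at the other end, had 7.45 and 6.14 CPM in hace1 MO libraries and 6.02 and 5.38 CPM in control MO libraries (0.25 ± 0.27 SE, adjusted p = 0.613). Hnrnpaba and hnrnpk overlapped between groups. Hnrnpaba had 2546 and 2686 CPM in hace1 MO libraries and 2300 and 3229 CPM in control MO libraries (-0.05 ± 0.22 SE). Hnrnpk, a poly(C)-binding protein, had 250 and 260 CPM in hace1 MO libraries and 251 and 259 CPM in control MO libraries (0.0014 ± 0.17 SE). Hnrnpa1a lay lower in both hace1 MO libraries, with 1236 and 1204 CPM, against 1512 and 1410 CPM in control MO libraries (-0.26 ± 0.19 SE, adjusted p = 0.435). Its locus overlaps hoxc13b on the other strand.

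**Figure D3:**
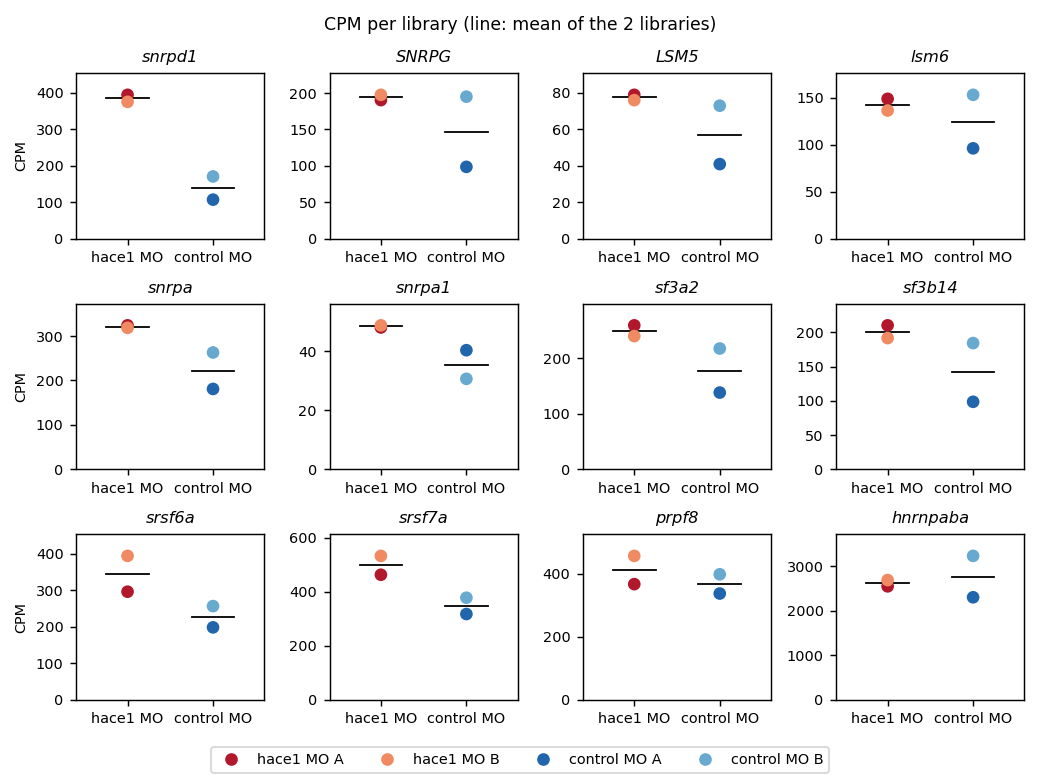
CPM of 12 members in each library, with hace1 MO at the left and control MO at the right of each panel and a line at the mean of the 2 libraries. Snrpd1 has both control MO libraries (107 and 170) far below both hace1 MO libraries (394 and 375), whereas SNRPG, LSM5 and lsm6 have a low value in control A alone.

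The control libraries themselves differed, in this set as over all tested genes. Control A was the lowest library for 27 of 57 tested members, against 31.1% of all tested genes. Control B was the lowest for 14, against 23.95% of all tested genes. By class, control A was lowest in 2 of 2 Sm, 2 of 2 U1, 5 of 8 U2, 4 of 9 U4/U6, U5 and other PRPF, 2 of 4 LSm, 9 of 15 SR, 0 of 2 U2AF and 3 of 15 hnRNP genes. The gap between the control libraries exceeded the log2 fold change in 36 of the 57, a count not made over all tested genes. The median absolute gap was 0.26 on the log2 scale over members and 0.28 over all tested genes, so it is not a trait of the set. The summed level of Sm genes was 584 and 572 CPM in hace1 MO libraries and 206 and 365 CPM in control MO libraries. LSm genes summed to 346 and 340 CPM in hace1 MO libraries and 240 and 328 CPM in control MO libraries. SR genes summed to 5843 and 6149 CPM in hace1 MO libraries and 4714 and 5810 CPM in control MO libraries. HnRNP genes summed to 10858 and 11304 CPM in hace1 MO libraries and 10805 and 12017 CPM in control MO libraries. Control B lay just under the hace1 MO libraries in the LSm and SR sums and above them in the hnRNP sum, while the Sm sum, of which snrpd1 is the larger part in the hace1 MO libraries, was lower in both control libraries. CPM over all genes summed to 1060224 and 1053885 in hace1 MO libraries, against 1000099 in control B. The order of sums as close as those of the LSm and SR genes thus depends on the scaling. Without control B, 16 of 57 members were called higher and 1 lower, against 11.9% and 11.8% of all tested genes. Without control A, 3 were called higher and 1 lower, against 6.38% and 7.58% of all tested genes.

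**Figure D4:**
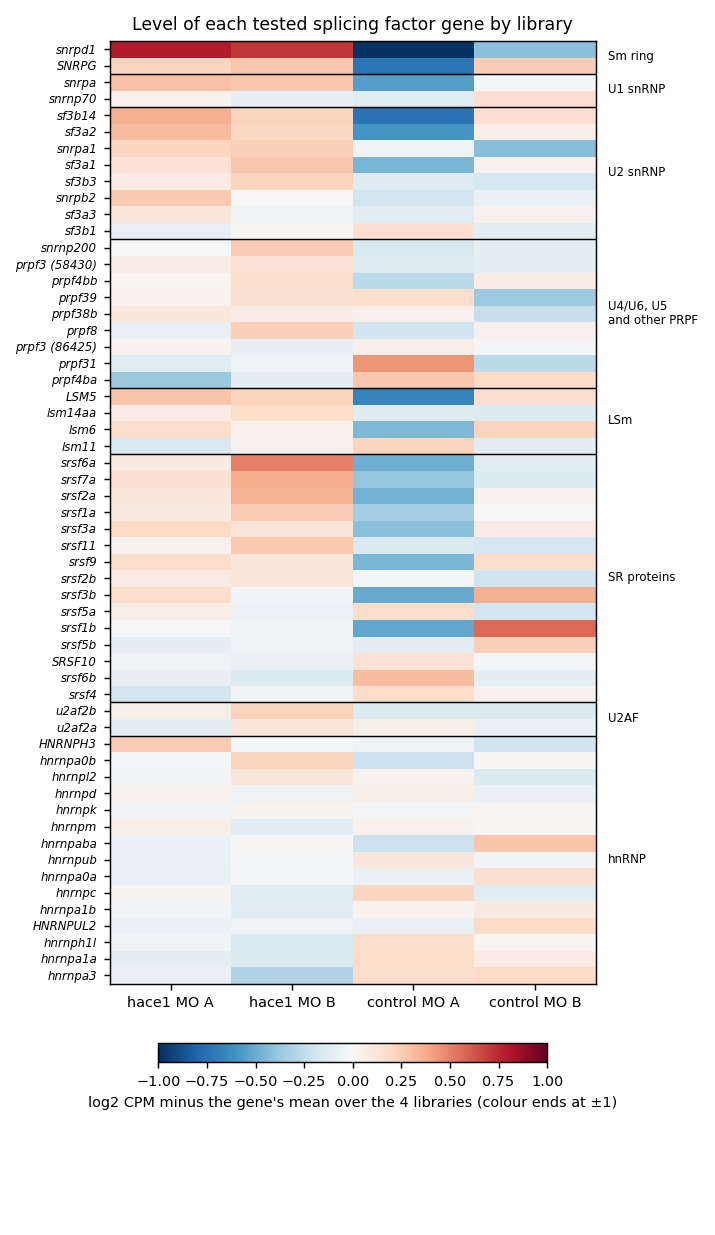
Log2 CPM of each tested member minus its mean over the 4 libraries, by class, with hace1 MO libraries in the left columns. Control A is the lowest library for 27 of the 57 members, among them 9 of 15 SR and 5 of 8 U2 genes but 3 of 15 hnRNP genes.

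**Figure D5:**
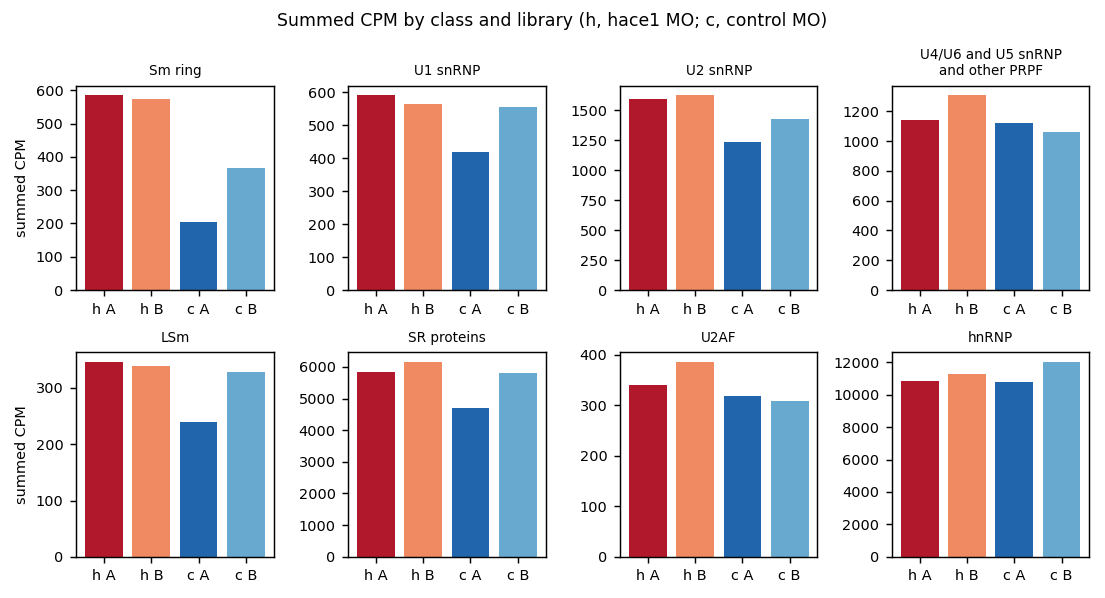
Summed CPM of each class in each library (h, hace1 MO; c, control MO; axes start at 0). The Sm sum is 584 and 572 in hace1 MO against 206 and 365 in control MO, and the hnRNP sums lie between 10805 and 12017.

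The shortest members differed from the rest in these values. By 5 equal classes of exonic length over all tested genes, shortest to longest, the median log2 fold change of members was 0.47, 0.07, 0.0091, 0.18 and 0.05, with no steady trend beyond the shortest class. The medians of all tested genes in the same classes were 0.06, 0.06, 0.05, -0.0055 and -0.12. The shortest class (1463 bases or less) holds 11 members, of which 9 were above 0 (snrpd1, SNRPG, snrpa, sf3b14, snrpa1, snrpb2, LSM5, lsm6 and srsf9) and prpf31 and lsm11 below. Control B exceeded control A by a median of 0.63 on the log2 scale in these members and by 0.07 in all genes of the class. The part of length in the members' values was not tested. In a further fit, the trend on length over all tested genes was removed from each library. Snrpd1 then had a log2 fold change of 1.46 (limma-trend adjusted p = 0.0071) and remained the called member. In the shortest class this trend was small (median 0.06 over all tested genes). The fit therefore cannot decide the part of length in the members' values.

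Use of exons within members was tested next, since a change in splicing can leave the total of a gene untouched. Of 54 members with at least 2 tested exon regions, 0 were called (limma diffSplice, F test per gene, Benjamini-Hochberg over 7171 genes), against 0.112% of all genes so tested, and 4 had an unadjusted p below 0.05, against 5.24%. Of the 650 exon regions of members, 0 were called, against 0.0291% of all exon regions tested. The smallest adjusted p was that of hnrnpa0b (0.298). Its exon region from 40342170 to 40343307 on chromosome 14 held 1.19% and 0.743% of the gene's exon counts in hace1 MO libraries, against 5.77% and 1.61% in control MO libraries. Control A stood apart from the other libraries there. In prpf38b, which encodes a protein related to the splicing factor Prp38, the first exon of the transcript prpf38b-002 held 2.28% and 0.982% in hace1 MO libraries and 8.13% and 4.11% in control MO libraries (adjusted p of the gene 0.758). Without control B, 6 members were called for exon use, namely hnrnpa0b, hnrnpaba, hnrnpub, lsm6, prpf38b and srsf3b, against 3.75% of all genes so tested without that library. Leaving out any other library gave 0.

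The share of each listed transcript in its gene was deposited by the authors without a count, so it is described with no test. Listed shares do not always make up the whole gene. The 1 listed transcript of SNRPG held 50.7% and 54.1% in hace1 MO libraries and 59.8% and 56.1% in control MO libraries. The 20 measured members with 1 listed transcript are left out of the counts below. For 147 transcripts of the 37 measured members with more than 1 listed transcript, the groups did not overlap for 55 (37.4%), against 38.1% of all transcripts of such tested genes. For 31 (21.1%) the groups differed by more than the larger gap within a group, against 21.8% of all. Both shares are near the background and are not results about the members. Among these 147 transcripts the largest difference, 11.5 percentage points, was in hnrnpm, which encodes a regulator of alternative exons. Transcript prpf38b-001 differed by as much at this precision. Outside the 147, the 1 listed transcript of lsm11, a gene near the filter, differed by more. It held 61.1% and 85.5% in hace1 MO libraries and 93.3% and 88.7% in control MO libraries. Transcript hnrnpm-001 held 80.2% and 85.3% of the gene in hace1 MO libraries, against 66.9% and 75.6% in control MO libraries. Transcript hnrnpm-201 held the complement in large part, with 14.5% and 8.96% in hace1 MO libraries and 26.9% and 17.7% in control MO libraries. In snrpa1, the share of snrpa1-002 was 60.4% and 57.8% in hace1 MO libraries and 45.3% and 53.4% in control MO libraries. In each of these, control A lay farther from the hace1 MO libraries than control B did. Gaps between control libraries exceeded those between hace1 MO libraries in 95 of the 147 transcripts, a count not made over all transcripts. Over well-counted genes the control libraries also differed more (median absolute log2 difference of 0.24, against 0.13 between hace1 MO libraries). That difference is of gene counts and not of shares, so it gives no background for the 95. The count is therefore not read as a result about the members.

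Other splicing genes, outside the symbol rule, were counted from 7 lists. Of their 97 tested genes, 0 were called higher and 2 lower, against 1.38% each way of all tested genes. The Prp19 complex activates the spliceosome. Of 19 annotated genes of that complex and related proteins, 13 were listed at 0 and the 6 tested held 0 calls (median log2 fold change 0.20). Also with 0 calls were 11 genes of spliceosomal helicases and related proteins (0.09) and 13 other tri-snRNP, U2 and minor spliceosome proteins (0.13). The 8 tested genes of the snRNP assembly list also held 0 calls (0.21). So did 11 genes of the exon junction complex and mRNA export (0.23) and 11 SR kinases and SR-related genes (0.06). Of 37 other regulators of splice-site choice, 2 were called lower and 0 higher (median -0.07). Among the 37, 23 had a log2 fold change below 0 and 14 above 0, against 50.5% above 0 of all tested genes. Srrm4 (log2 fold change -1.46) and celf5a (-1.12) narrowly missed a call (limma-voom adjusted p = 0.0511 and 0.0513). At an unadjusted limma-voom p below 0.05 stood 8 of these 37 regulators and 3 of the helicase list, against 22.4% of all tested genes. Below it too were 2 genes each of the assembly, junction complex and SR kinase lists, 1 of the 13 and 0 of the Prp19 list. The counts of calls and of small p are thus not results about the lists. Nova1, a neuronal splicing regulator, had 28.9 and 24.6 CPM in hace1 MO libraries, against 57.5 and 41.3 CPM in control MO libraries (log2 fold change -0.86 ± 0.20 SE, limma-voom adjusted p = 0.0452). Celf3b, of the CELF family, had 25.03 and 22.1 CPM in hace1 MO libraries and 37.6 and 39.5 CPM in control MO libraries (-0.72 ± 0.17 SE, adjusted p = 0.0498). Both lay close to the threshold. Neither was called without hace1 A or without hace1 B, fits in which most calls over all tested genes were lost.

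Marker lists of cell types in the embryo were counted beside these values. Of all tested genes, 1.38% were called higher and 1.38% lower. The 11 tested neuron markers all had a negative log2 fold change (median -0.33), 2 of them called, with a summed level of 2026 and 2174 CPM in hace1 MO libraries and 2203 and 2825 CPM in control MO libraries. The 5 tested photoreceptor markers (3 called lower) summed to 18.3 and 14.9 CPM in hace1 MO libraries and 37.7 and 34.9 CPM in control MO libraries, with rho among the 10 listed at 0. Skeletal muscle markers (3 of 9 called higher) summed to between 56013 and 65168 CPM in hace1 MO libraries and between 44183 and 48937 CPM in control MO libraries. Erythroid markers (2 of 8 called higher, 1 with a negative log2 fold change) summed to between 8500 and 10432 CPM in hace1 MO libraries. In control MO libraries they summed to between 7070 and 8582 CPM, so the ranges overlapped. Skin markers (1 of 9 called higher) summed to between 32101 and 32391 CPM in hace1 MO libraries and between 26031 and 29440 CPM in control MO libraries. Markers of proliferating cells (0 of 8 called, 7 above 0) summed to between 3145 and 3232 CPM in hace1 MO libraries and between 2483 and 2643 CPM in control MO libraries. The part of these marker differences in the values of nova1, celf3b or any member was not tested.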

How the data were processed

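Per the submitters' processing notes, reads passed through software that includes DESeq, TopHat2 2.0.6, Bowtie2 2.0.2 and cutadapt 1.2.1, with genome build Zv9. Counting program, strand setting and annotation release: not given in the sources used here. Genes and exons carry estimated counts as deposited (94.3% of values of quantified genes not whole), transcripts carry the authors' fraction of their gene, and a further table holds log2 values. In 98.9% of the 12216 genes that had 1 count or more in each library, the deposited log2 values equalled, within 0.001, centred log2 counts after median-of-ratios scaling. Columns matched samples by name, with 0 left unmatched.

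The low-count filter asked for the CPM that 10 counts make in a median-sized library, in 2 or more libraries, and 15 counts in all. It left 10832 genes. Libraries were scaled by an own trimmed mean of M values (trimming 30% of log ratios and 5% of levels). The test was limma-voom (limma 3.58.1, R 4.3.3) on morpholino alone, p-values were adjusted by Benjamini and Hochberg across the 10832 genes and called below 0.05, and the script was tested on simulated data. Log2 CPM used a prior count of 2. A count model was not run, since the counts stand as named pairs in an annotation file. Exon lines with the same start and end were summed over the transcripts of a gene, because the authors split each exon's counts among them, before diffSplice. Named members were those called, those of smallest p up to 20, and per class the one of highest CPM and those of most positive and most negative change. Others were chosen after their values were seen (paralogues of named members, members of extreme level, control gap or transcript share). Members, classes and lists were chosen with earlier results of these data known. Symbols and coordinates are those of the deposited table, and 80 of the 98 identifiers had a current symbol. Of other genes, 7 carry a current symbol that would meet the rule and were not counted as members.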

Additional observations from a re-analysis of the deposited data

How the results depend on the processing

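Snrpd1 kept its direction under all 13 alternatives (log2 fold change 1.17 to 1.84). It lost its call when either hace1 MO library was left out, as did most called genes. It was the 1 called member with no filter, with median-of-ratios factors, with unscaled totals, with genes over 1% left out of the scaling, with limma-trend, with the authors' deposited log2 values, with the length trend removed and with quality weights. Leaving out each library in turn gave 0 to 16 members called higher and 0 to 1 lower, 0 to 13 other splicing genes called higher and 0 to 11 lower, and 0 to 6 members called for exon use. Fits on 3 libraries, or with the block, have 1 residual degree of freedom per gene and lean on the spread pooled over genes, and the lone library of a group is assumed to vary like the other group. The main fit, on 2 libraries a group, leans on the pooled spread too, with 11.9 degrees of freedom per gene after pooling. Same-lettered libraries did not deviate together (r = 0.011 across 10832 genes). This correlation cannot decide whether the letters pair the libraries, since a shared effect may be small beside the other spread. With the replicate block, 3 members were called higher (snrpd1, sf3b14 and srsf6a) and, of other splicing genes, 1 was called higher and 6 lower. The 2 falls among other splicing genes were 1 without a filter, with median-of-ratios factors or with the length trend removed, 0 with limma-trend or the deposited log2 values, and 6 with unscaled totals or quality weights. Of all tested genes, 149 higher and 150 lower became 105 and 523 with unscaled totals, 279 and 370 with quality weights, 423 and 491 with the block, 106 and 62 with the length trend removed and 125 and 96 with the deposited log2 values. Leaving out a library gave 8 to 1287 higher and 0 to 1278 lower.

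Of 377 values of 29 named members, 11 turned in sign. U2af2a was -0.13 with unscaled totals and sf3b1 0.024 with the length trend removed. Without 1 library, values ranged from -0.19 to 0.097 for snrnp70, -0.090 to 0.13 for u2af2a, -0.0084 to 0.97 for SNRPG, -0.20 to 0.069 for sf3b1, -0.34 to 0.049 for lsm11, -0.10 to 0.57 for lsm6 and -0.30 to 0.19 for hnrnpaba. The cause was not tested in these cases. With 2 libraries a group, a p that misses the threshold does not show that a gene did not differ. Intervals cover the spread between pools.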
